A study of Mus musculus with 2 samples.

Results

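The 33 DNA replication genes described here are a fixed list of genes that a cell transcribes around the start of S phase and uses to copy its genome. All 33 were found among the 53380 features of the files. They comprise 9 genes of the replicative helicase and its loading, 7 of the sliding clamp and the fork, 6 of nucleotide supply, 7 of new chromatin, and 4 of the checkpoint and the entry into S phase. They were read in endothelial cells sorted from mouse sciatic nerve, the large nerve of the hind limb. One group was the intact nerve and the other was nerve 7 days post injury, called injured here. Cells of both groups carried the reporter spelled Chd5CreER/R26-TdTomato in the labels. Its Cre is driven from Cdh5, the gene of the endothelial cadherin, and switches on a red fluorescent protein. Nerves were pooled and digested, and cells with the reporter and without CD45, a marker of blood cells, were sorted. The ages, strain and number of animals are not given in the sources used here. Each group was 1 library, so no comparison of the groups had a replicate and no test was made. The 95% intervals cover counting error only, and differences between animals, sorts or library preparations cannot be told apart from injury.

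Replication proceeds from origins that are licensed in G1, when Cdc6 helps to load the ring of Mcm2 to Mcm7 onto DNA. In S phase Cdc45 and the GINS complex turn that ring into an active helicase, a clamp loader places the Pcna ring behind it, and polymerases copy both strands while new histones package them. Many of these genes are known targets of E2F, the transcription factors that the retinoblastoma protein holds back in resting cells. Endothelial cells of an adult nerve rarely divide, whereas vessels that grow into a wound gain cells by division.

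Promoters are shown first because the members are a set that is known for a shared site. RefSeq (GRCm38.p6) gave a promoter, from 250 bases before to 50 after the gene start, for 28 of the 33 members, and Mcm4, Gins2, Tipin, Hist1h2ap and Ccne2 had no entry. The letters TTTCCCGC, TTTCGCGC, TTTGCCGC or TTTGGCGC, searched on both strands as forms of the E2F site, stood in 11 of the 28 genes (39.3%). Such letters stood in 2.61% of the 27025 genes counted and in 3.29% of the 17492 that code for protein. Genes of a chromosome on which no member lies were left out of these and all later promoter shares. The 11 were Mcm3, Mcm5, Mcm6, Mcm7, Cdc6, Pclaf, Lig1, Uhrf1, Dnmt1, Hells and Clspn. The first 3 promoters below hold the letters and the fourth, of Pcna, does not. Capitals mark the matched letters, and each sequence is written 5′ to 3′ on the strand of its gene.
Mcm5, chr8:75109259-75109558, plus strand: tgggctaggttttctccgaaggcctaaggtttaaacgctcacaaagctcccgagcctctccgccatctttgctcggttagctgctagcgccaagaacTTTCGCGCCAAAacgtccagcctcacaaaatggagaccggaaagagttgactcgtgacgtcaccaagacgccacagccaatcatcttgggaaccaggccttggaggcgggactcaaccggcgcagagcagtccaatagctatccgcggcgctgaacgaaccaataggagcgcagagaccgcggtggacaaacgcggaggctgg
Mcm6, chr1:128359656-128359955, minus strand: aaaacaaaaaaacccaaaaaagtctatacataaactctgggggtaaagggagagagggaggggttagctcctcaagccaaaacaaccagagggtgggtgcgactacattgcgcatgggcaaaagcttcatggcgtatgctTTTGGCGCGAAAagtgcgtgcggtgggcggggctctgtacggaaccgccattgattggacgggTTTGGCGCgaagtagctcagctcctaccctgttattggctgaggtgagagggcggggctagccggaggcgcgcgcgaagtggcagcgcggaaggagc
Pclaf, chr9:65890073-65890372, plus strand: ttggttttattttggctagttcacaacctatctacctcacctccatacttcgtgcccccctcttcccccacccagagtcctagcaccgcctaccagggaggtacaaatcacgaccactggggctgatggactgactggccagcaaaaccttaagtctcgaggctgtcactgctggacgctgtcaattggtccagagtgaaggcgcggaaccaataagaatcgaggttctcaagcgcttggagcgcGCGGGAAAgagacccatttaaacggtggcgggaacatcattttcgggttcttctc
Pcna, chr2:132253131-132253430, minus strand: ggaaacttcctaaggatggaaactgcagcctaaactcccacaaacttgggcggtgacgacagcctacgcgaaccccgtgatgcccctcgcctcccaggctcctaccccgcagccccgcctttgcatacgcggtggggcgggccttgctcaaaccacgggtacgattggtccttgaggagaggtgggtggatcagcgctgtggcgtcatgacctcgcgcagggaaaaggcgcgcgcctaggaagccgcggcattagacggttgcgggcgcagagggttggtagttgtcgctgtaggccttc
In the Mcm5 promoter TTTCGCGC began 153 bases before the start and overlapped TTTGGCGC on the other strand. Mcm6 held such an overlapping pair from 110 bases before its start and a further TTTGGCGC at 47 bases. Pclaf held TTTCCCGC on the other strand, 5 bases before its start. Other short elements were searched on both strands in the same windows. The CHR letters TTTGAA or TTCGAA, an element known from genes of mitosis, stood in 6 of 28 member genes (21.4%) and in 21.7% of all genes. CCAAT stood in 17 of 28 (60.7%, against 41.1% of all genes) and the GC box GGGCGG in 19 of 28 (67.9%, against 38.2%). Member promoters were richer in G and C, with a median of 57.7% against 52.7% of all promoters. A match of letters is a description and not a bound site.

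Barcodes shared by the libraries bear on the values and were dealt with first. The intact library held 1618 barcodes with 9401203 UMIs (unique molecules) and the injured one 2023 with 27157892. Both libraries held 298 barcodes in common. A cell whose barcode had at least 5 times its UMIs in the other library was left out, which removed 100 intact and 48 injured endothelial cells. The authors' cell table then gave 718 intact endothelial cells (4542225 UMIs, median 4461 per cell) and 1274 injured ones (19989024 UMIs, median 11684). The pan-endothelial markers summed to 8742 intact and 6166 injured CPM (UMIs per 1000000 UMIs of the same cells), with UMIs for 10 of 10 in both. Of the myeloid markers Ptprc, the CD45 gene, and Itgam were at 0 in both libraries, and the list summed to 34.1 and 7.85 CPM. Markers of pericytes and smooth muscle had UMIs for 6 of 6 genes and summed to 1055 intact and 212 injured, and those of fibroblasts, also 6 of 6, to 57.7 and 29.1. Erythroid markers (5 of 5 genes) summed to 325 and 44.6. The part of these other cells' RNA in the results was not tested.

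The question asked of the 2 libraries was how much of the replication machinery endothelial cells transcribed in the wound against the resting nerve, and in which cells. Summed over the 33 genes, intact endothelium held 417 CPM and injured endothelium 1303 CPM. The ratio was 3.13 (interval 2.98 to 3.28). A gene was called higher or lower at a 2-fold difference after 5 CPM had been added to both values. By that measure 21 of the 33 members were higher in the injured library and 0 were lower, and the median log2 ratio was 1.07. Taking all 8268 genes whose mean reached 10 CPM, 4.79% were higher and 6.82% lower, with a median of 0.04. Of the 26 members at that level 19 were higher.

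Of the 9 helicase and loading genes 6 were past 2-fold higher in the injured library and 0 lower. Mcm5, a subunit of the ring, held 4.40 CPM intact and 35.7 CPM injured, an 8.11-fold ratio (5.21 to 13.4). Mcm3 held 18.5 and 47.7 CPM, and Mcm6 held 16.1 and 39.2 CPM. The ratios of the other ring subunits were lower than that of Mcm5. Mcm7 held 13.0 and 31.7 CPM, Mcm2 held 8.59 and 22.8 CPM, and Mcm4 held 12.5 and 20.3 CPM, a ratio of 1.62 (1.22 to 2.18) that was not past 2-fold. Gins2, a GINS subunit, held 3.08 and 13.3 CPM. Cdc45 held 2.42 and 7.45 CPM, and Cdc6, the loader, 3.52 and 5.60 CPM. For Cdc6 the interval of the ratio, 0.938 to 2.88, included 1.

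The clamp and its partner parted. Pcna, the sliding clamp that tethers polymerases, was the member with the lowest ratio, at 74.4 CPM intact and 53.7 CPM injured (ratio 0.722, interval 0.638 to 0.818). Its intact level was known from 338 UMIs. Pclaf, a small protein that binds Pcna, held 5.06 and 84.8 CPM, a 16.7-fold ratio (11.1 to 26.5). Rfc4, a clamp loader subunit, held 3.96 and 20.3 CPM, a 5.13-fold ratio (3.20 to 8.74). Lig1, the ligase that joins lagging-strand pieces, held 12.1 and 32.8 CPM. Fen1, the nuclease that trims their ends, held 5.94 and 17.5 CPM. Prim1, the primase subunit, held 6.38 and 14.9 CPM, and Rpa2, of the single-strand binding complex, 8.15 and 16.4 CPM. The ratios of these last 2, at 2.33 and 2.01, were not past 2-fold once 5 CPM had been added.

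Nucleotide supply had 5 of 6 genes past 2-fold. Tyms, which makes thymidylate, held 15.4 CPM intact and 70.9 CPM injured, a 4.60-fold ratio (3.62 to 5.94). Tk1, the salvage enzyme for thymidine, had 2 UMIs in the intact and 466 in the injured cells, or 0.440 and 23.3 CPM. Its ratio of 52.9 had an interval from 14.6 to 438, set by the 2 intact UMIs. The ribonucleotide reductase subunits differed in their intact level. The large subunit Rrm1 held 15.4 and 40.5 CPM (2.63-fold, 2.06 to 3.40), and the small subunit Rrm2, the one known to be made mainly in S phase, 2.86 and 24.1 CPM (8.43-fold, 4.88 to 15.9). Dut, which removes dUTP, held 24.2 and 71.1 CPM. Ung, which cuts uracil out of DNA, held 1.76 and 6.85 CPM and was not past 2-fold after the 5 CPM.

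The chromatin genes had 6 of 7 members past 2-fold. Hist1h2ap, a replication-dependent H2A gene, held 27.7 CPM intact and 307 CPM injured (11.1-fold, 9.29 to 13.3). Hist1h2ae, another H2A gene, held 5.28 and 46.3 CPM (8.76-fold, 5.85 to 13.7). Their coding sequences of 393 bases were 98.5% identical, and of 14 H2A genes of that coding length 1 other was identical to Hist1h2ap, so reads could not always be placed and both values are uncertain. Slbp, which binds the stem-loop that ends such histone messages, held 45.1 and 58.5 CPM (1.30-fold, 1.12 to 1.51). Chaf1b, of the assembly factor that follows the fork, held 4.84 and 17.4 CPM. Uhrf1 and Dnmt1 are known to copy DNA methylation to the new strand. Uhrf1 held 1.32 and 16.7 CPM (12.6-fold, 5.75 to 34.7), and Dnmt1 18.7 and 44.1 CPM (2.36-fold, 1.88 to 2.98). Hells, a chromatin remodeller, held 12.1 and 34.5 CPM.

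None of the 4 genes of the checkpoint and S phase entry was past 2-fold. Clspn, a mediator of the replication checkpoint, held 8.81 and 19.7 CPM, and Tipin, of the fork protection complex, 28.6 and 48.6 CPM. The E cyclins were low in both libraries. Ccne1 held 1.32 and 4.05 CPM and Ccne2 4.62 and 5.35 CPM, where the interval of the Ccne2 ratio, 0.720 to 1.95, included 1. Over all members the interval of the ratio lay above 1 for 30, below 1 for 1 (Pcna) and around 1 for 2.

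**Figure D1:**
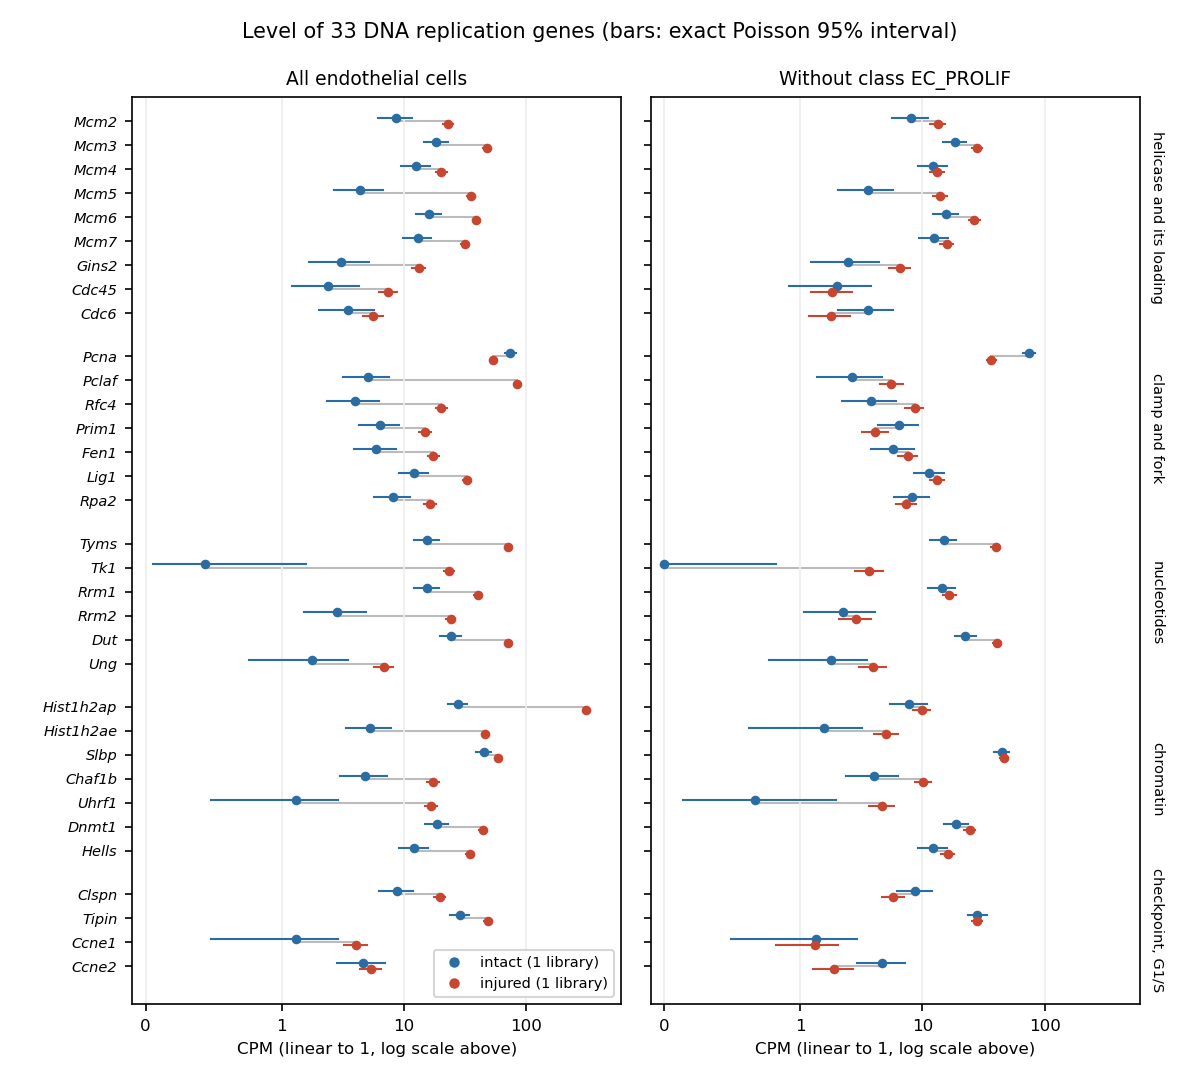
Level of each member in CPM (x axis, linear to 1 and logarithmic above), in intact (blue) and injured (red) endothelium, with exact Poisson 95% intervals, over all endothelial cells (left) and without the class EC_PROLIF (right). At left every member except Pcna has its red point to the right of its blue one. At right many pairs lie close together, while Tyms, Mcm5 and low members such as Uhrf1, Tk1 and Hist1h2ae stay apart. Pcna is farther to the left in red there.

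Most of that difference sat in a class that the authors' table names EC_PROLIF. This class held 162 of 1274 injured endothelial cells (12.7%) and 11 of 718 intact ones (1.53%). The table classes the same cells whose genes are read here, so levels in EC_PROLIF describe the class and test nothing. In the injured library EC_PROLIF gave 21.0% of the endothelial UMIs of all genes and 71.8% of those of the members, or 62.6% without both H2A genes. Each of the 33 members drew a larger share from EC_PROLIF than the UMIs of all genes did. The shares ran from 37.7% for Slbp, 46.2% for Pcna and 46.4% for Mcm6 to 97.5% for Hist1h2ap, 94.8% for Pclaf, 91.4% for Hist1h2ae and 90.7% for Rrm2. Set against the other injured endothelial cells, the level in EC_PROLIF was 2.27-fold for Slbp (105 against 46.2 CPM), 3.22-fold for Pcna (118 against 36.6 CPM) and 68.6-fold for Pclaf (382 against 5.57 CPM). Hist1h2ap held 1425 CPM in EC_PROLIF and 9.82 CPM outside it.

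**Figure D2:**
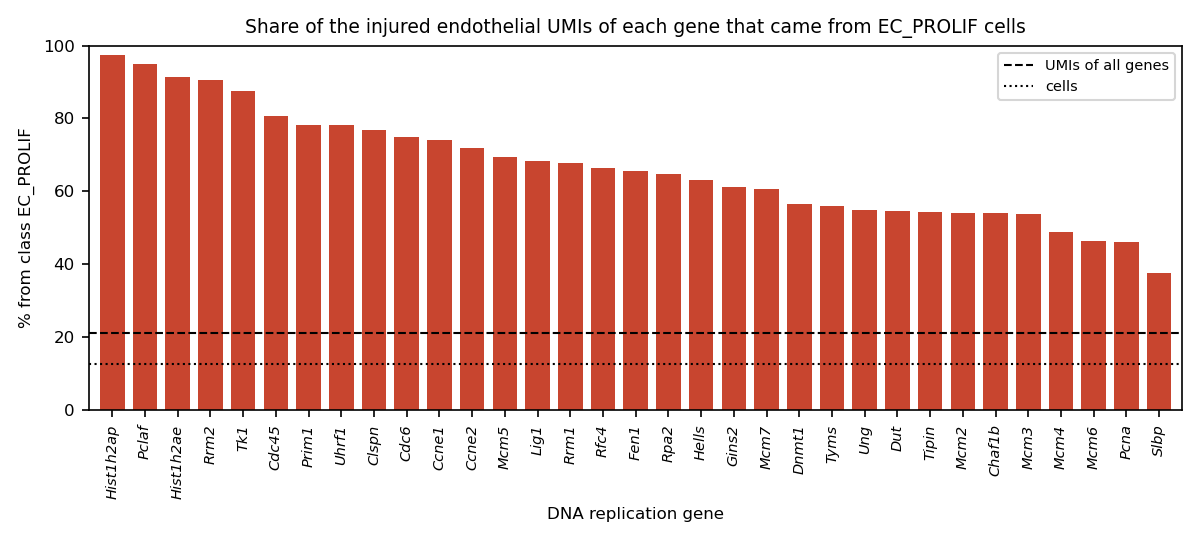
Percent of each member's UMIs in injured endothelium that came from EC_PROLIF cells (bars, y axis), against the same share of the UMIs of all genes (dashed line, 21.0%) and of cells (dotted line, 12.7%). Bars fall from 97.5% for Hist1h2ap to 37.7% for Slbp, and all stand above the dashed line.

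The 11 intact EC_PROLIF cells were a mixed set. Of these, 4 shared a barcode with an injured cell at similar depth, held 530 to 731 UMIs and had 0 UMIs of the pan-endothelial markers. Myeloid markers summed to 32414 CPM in those 4 cells, led by S100a9, a neutrophil gene. The other 7 held 0 to 95 member UMIs each, and 1 cell with 5670 UMIs accounted for 95 of the 188 member UMIs of the class. The 11 cells gave 91 of the 126 intact endothelial UMIs of Hist1h2ap and 17 of the 24 of Hist1h2ae. The pooled intact levels of both H2A genes therefore rest largely on few cells. The injured EC_PROLIF cells had UMIs for 10 of 10 pan-endothelial markers, with Ptprc at 0 and a myeloid sum of 6.66 CPM. Without the 4 intact cells the number of members past 2-fold was 21 as well.

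Outside EC_PROLIF the summed members held 379 CPM in 707 intact cells and 465 CPM in 1112 injured cells, a ratio of 1.23 (1.16 to 1.29). Only Mcm5 and Tyms of the 33 were past 2-fold higher there, 0 were lower, and the median log2 ratio was 0.25. Among the 8211 genes measured in these cells 3.93% were higher and 6.31% lower, with a median of 0.03. Of the 14 members at that level 1 was higher, which on so few genes is no result about the members. Tyms held 14.9 CPM intact and 39.6 CPM injured (2.66-fold, 2.06 to 3.47), and Mcm5 3.56 and 13.9 CPM (3.90-fold, 2.35 to 6.94). Several members stayed level. Slbp held 44.7 and 46.2 CPM, Tipin 28.0 and 28.1 CPM, and Mcm4 12.2 and 13.2 CPM. Of Tk1 there were 0 intact UMIs and 3.67 CPM injured, which is at least 5.51-fold higher against 3 UMIs over the intact group.

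Other members were lower outside EC_PROLIF in the injured library. Pcna held 74.3 CPM intact and 36.6 CPM injured, 2.03-fold lower (ratio 0.493, interval 0.430 to 0.566), and was just short of the 2-fold line once 5 CPM had been added, at a log2 ratio of -0.93. The interval of the ratio also lay below 1 for Ccne2 (4.67 and 1.90 CPM, 21 and 30 UMIs), Cdc6 (3.56 and 1.77 CPM, 16 and 28 UMIs) and Clspn (8.67 and 5.76 CPM). Prim1 held 6.45 and 4.12 CPM, with an interval from 0.406 to 1.03. Over the 33 members the interval lay above 1 for 14, below 1 for 4 and around 1 for 14, and Tk1 had none. Thus the direction of Pcna was the same in the pooled cells and outside EC_PROLIF, while Ccne2, Cdc6 and Clspn had ratios above 1 in the pooled cells and below 1 outside that class.

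The same reading within classes left little of the summed difference. In the table EC_ART cells led in arterial markers (1620 CPM intact, 1670 CPM injured), EC_CAP-PV- cells in capillary ones (5868 and 4081 CPM) and EC_VEN-PV+ cells in venous ones (3916 and 3757 CPM). The names are printed as deposited, and their endings are not explained in the sources used here. Folds were read in these 3 classes, which had at least 50 cells in both libraries. Summed members were at 428 CPM intact and 460 CPM injured in EC_ART (ratio 1.07, 0.935 to 1.24), at 416 and 414 CPM in EC_CAP-PV- (0.995, 0.840 to 1.18), and at 369 and 391 CPM in EC_VEN-PV+ (1.06, 0.959 to 1.17). Each interval included 1.

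In EC_ART 3 of 33 members were past 2-fold higher and 0 lower, where 6.07% of 8137 measured genes were higher and 7.31% lower. The 3 were Mcm6 (9.96 and 31.5 CPM), Mcm2 (3.32 and 13.3 CPM, from 2 intact UMIs) and Chaf1b (0 and 9.35 CPM). In EC_CAP-PV- 3 were higher and 1 lower, where 5.76% of 8156 genes were higher and 9.21% lower. Tyms (14.4 and 38.0 CPM), Hells (4.12 and 16.2 CPM, from 2 intact UMIs) and Rfc4 (0 and 7.61 CPM) were the higher ones there, and Rrm2 (10.3 and 1.90 CPM, from 5 and 2 UMIs) the lower one. In EC_VEN-PV+ 0 were higher and 0 lower, where 3.77% of 8108 genes were higher and 4.61% lower. Of the members with a mean of 10 CPM or more, as those genes have, 1 of 14 was higher in EC_ART and 2 of 13 in EC_CAP-PV-. In EC_VEN-PV+ it was 0 of 11, and 0 were lower in any of the 3 classes. On so few genes these counts are no result about the members.

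In 5 classes with at least 20 cells in both libraries, 6 of the 33 members had an injured level above the intact one in every class and 1 below it in every class. Of the 8211 genes measured outside EC_PROLIF 19.0% were above in every class and 13.8% below. Of the 14 members measured there 2 were above (Tyms and Dut) and 1 below (Pcna), so the members' share did not exceed that of all genes. Pcna was the member whose injured level was below its intact level in every class. Its intact levels ran from 66.1 to 94.7 CPM and its injured ones from 32.7 to 45.6 CPM. In EC_VEN-PV+ Pcna held 76.6 and 38.5 CPM, 1.99-fold lower (ratio 0.503, interval 0.393 to 0.646), and in EC_ART 69.7 and 35.9 CPM. The injured level of Pcna in EC_PROLIF, 118 CPM, lay above all of these. At equal depth, 17.9% of intact and 11.1% of injured endothelial cells outside EC_PROLIF held a Pcna UMI, against 29.9% of injured EC_PROLIF cells.

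The 6 above their intact level in each class were Tyms, Dut, Mcm5, Gins2, Chaf1b and Uhrf1, and the last 3 rested on 0 to 7 intact UMIs a class. In EC_BAR Uhrf1 had 0 and 3 UMIs. Tyms ran from 13.3 to 16.4 CPM over the intact classes and from 22.5 to 38.0 CPM over the injured ones. Mcm5 ran from 2.20 to 4.98 CPM and from 5.64 to 12.3 CPM, on few intact UMIs. Dut ran from 18.4 to 26.8 CPM and from 29.5 to 46.7 CPM. Such ranges were not read over all genes, so they only describe members already named for their direction in each class. Cells classed EC_IMMAT and EC_TIP were nearly all injured, with 260 and 100 injured and 4 and 4 intact cells, so those classes and that library cannot be told apart. EC_TIP led in tip markers (1027 CPM injured). Their summed members stood at 538 CPM in EC_IMMAT and 580 CPM in EC_TIP, above the 369 to 460 CPM of the 5 other injured classes. Tyms reached 57.3 CPM in EC_IMMAT and Gins2 16.7 CPM in EC_TIP.

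**Figure D3:**
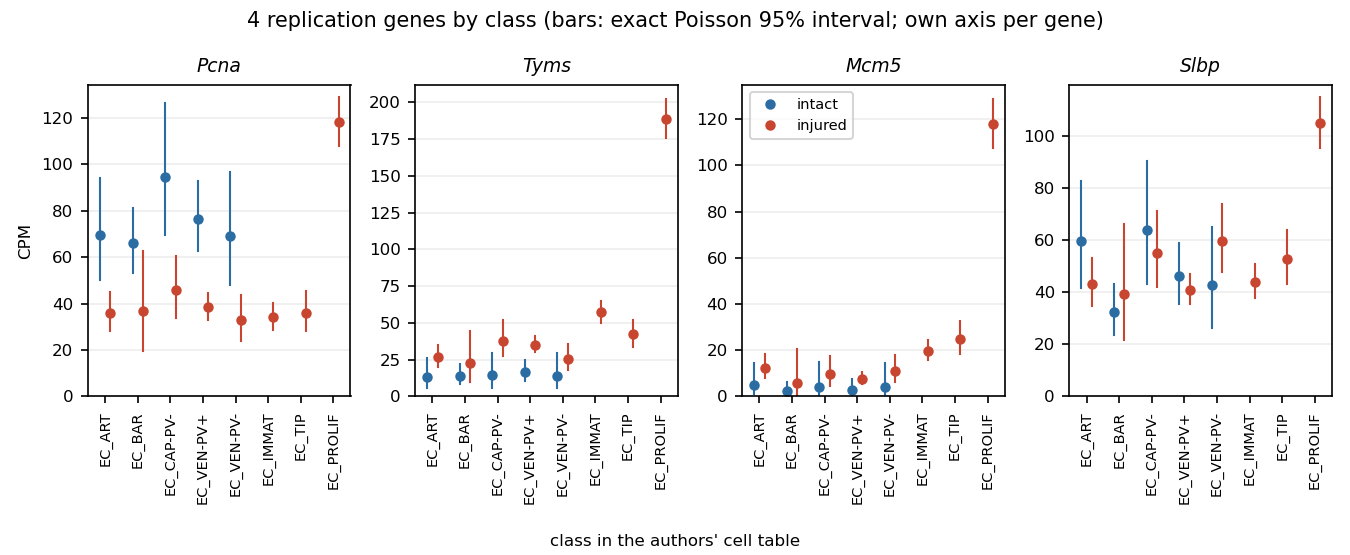
Level of Pcna, Tyms, Mcm5 and Slbp in CPM (y axis, own scale per gene) by class, in intact (blue) and injured (red) cells, with exact Poisson 95% intervals and only where a class held at least 20 cells. Injured Pcna lies below intact Pcna in 5 of 5 classes and Tyms and Mcm5 above, Slbp goes both ways, and EC_PROLIF stands above the other classes for all 4.

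Cells were counted as well as molecules. Every cell with at least 3000 UMIs was thinned to 3000, which left out 236 of 718 intact and 51 of 1274 injured endothelial cells. At least 2 different members were held by 140 of 482 intact cells (29.0%, Clopper-Pearson interval 25.0 to 33.3%) and by 500 of 1223 injured cells (40.9%, 38.1 to 43.7%). Another random draw gave 32.2% and 38.5%, a smaller difference. Without thinning the shares were 49.2% and 79.5%, at median depths of 4461 and 11684 UMIs. Outside EC_PROLIF the thinned shares were 28.4% (24.4 to 32.6%) and 32.6% (29.8 to 35.6%), and in the other draw 31.5% and 29.9%, the opposite order, so no difference between the libraries is read there. In EC_PROLIF 152 of 157 injured cells (96.8%, 92.7 to 99.0%) and 5 of 6 intact cells held 2 members.

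A pair of members was common outside EC_PROLIF in both libraries. EC_BAR, which led in the markers of a vessel barrier in the intact library (4215 CPM), had 30.6% of 121 intact and 30.3% of 33 injured cells with at least 2 members, at median depths of 4682 and 7906 UMIs before thinning. EC_VEN-PV- had 18.2% of 44 and 29.3% of 116 cells, and its name does not match its intact markers, where the barrier list (2785 CPM) exceeded the venous one (989 CPM). No class of the table should lack replication transcripts altogether, so these classes served as the background for a share of cells. Against them EC_PROLIF stood apart, with a median of 7 different members per thinned injured cell against 1 in each other injured endothelial class that held at least 20 such cells.

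A limit of 5 members, chosen after the values were seen, separated that class further. It was met by 6 of 482 intact (1.24%, 0.458 to 2.69%) and 143 of 1223 injured endothelial cells (11.7%, 9.94 to 13.6%). Of the 143 cells 118 were EC_PROLIF, which is 75.2% (67.6 to 81.7%) of its 157 cells. In the other draw the shares were 0.830% intact, 12.8% injured and 77.1% in EC_PROLIF. Outside EC_PROLIF the limit was met by 4 of 476 intact (0.840%, 0.229 to 2.14%) and 25 of 1066 injured cells (2.35%, 1.52 to 3.44%), intervals that overlap. It was met by 0 of 121 intact EC_BAR cells, which allows a share of up to 2.48%. Among single members, Hist1h2ap had a UMI in 57.3% of thinned injured EC_PROLIF cells against 2.53% of injured and 2.10% of intact cells outside it, and Pclaf in 56.7% against 1.41% and 1.05%. Slbp had one in 28.7% against 13.0% and 13.7%.

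**Figure D4:**
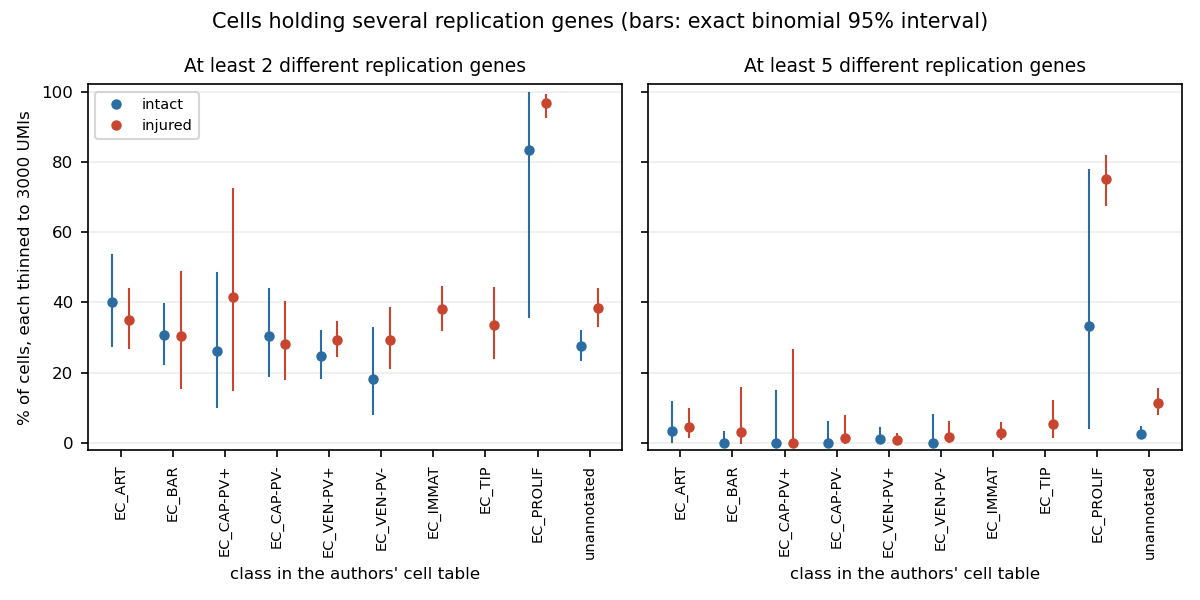
Percent of cells, thinned to 3000 UMIs each, that held at least 2 (left) or at least 5 (right) different members, by class and for barcodes without a class, in intact (blue) and injured (red) cells, with exact binomial 95% intervals and only where at least 5 cells were left. EC_PROLIF is the class above the others in both panels, at 96.8% and 75.2% for injured cells.

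Cells in EC_PROLIF differed by phase genes. G2/M genes, which act at the end of the cycle and in mitosis, were read from a list of 26 that shares no gene with the members. At least 2 of them were held by 135 of the 157 thinned injured EC_PROLIF cells (86.0%). Both sets were present in 101 cells (at least 5 members and at least 2 G2/M genes), members only in 17, G2/M genes only in 34 and neither in 5. Outside EC_PROLIF the injured numbers were 6, 19, 71 and 970 of 1066 cells. At least 2 G2/M genes were held there by 77 injured cells (7.22%, 5.74 to 8.95%) and by 2 of 476 intact ones (0.420%, 0.0509 to 1.51%). In the injured library 3 of 33 EC_BAR and 12 of 116 EC_VEN-PV- cells held them, against 0 of 121 and 0 of 44 intact ones. Those injured classes were thus not free of such cells. The 135 cells with and the 22 without G2/M genes had median depths of 25357 and 23783 UMIs before thinning and median mitochondrial shares of 3.16% and 2.91%.

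Summed members were higher in cells with G2/M genes, at 4953 against 3424 CPM in the thinned counts (ratio 1.45, 1.26 to 1.67). Hist1h2ap alone held 1770 against 394 CPM and Hist1h2ae 319 against 30.3 CPM, so both H2A genes weighed heavily on that sum. The median log2 ratio of the members was 0.07, against -0.09 over all measured genes. After 5 CPM were added, 8 of 33 members were past 2-fold higher in cells with G2/M genes and 4 lower, where 12.2% of 8117 measured genes were higher and 14.0% lower. In the 22 cells 1 thinned UMI is worth 15.2 CPM and members had as few as 0 UMIs, so single members were read from all UMIs of the same cells, a choice made after the data were seen. The 22 cells had fewer than 2 G2/M genes each after thinning, but over all UMIs they were not free of them. As a group they held UMIs of 25 of the 26, at 718 CPM against 4568.5 CPM in the 135 cells. Injured endothelium outside EC_PROLIF held 165 CPM of these genes. By all UMIs the summed members held 4742 CPM in the cells called with and 2701 CPM in those called without G2/M genes (1.76-fold, 1.67 to 1.85). The H2A genes are in that sum too, and the median log2 ratio of the members was 0.18, against 0.005 over measured genes. Past 2-fold higher were 4 of 33 and lower 0, where 2.34% of measured genes were higher and 0.517% lower.

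The 4 were both H2A genes, Pclaf and Rrm2. Hist1h2ap held 1620 CPM with and 232 CPM without G2/M genes (6.98-fold, 5.90 to 8.32), and Hist1h2ae 230 and 26.9 CPM (8.54-fold, 5.23 to 15.0, from 16 UMIs in the cells without). Pclaf held 418 and 165 CPM (2.54-fold, 2.07 to 3.14) and Rrm2 113 and 48.8 CPM (2.31-fold, 1.59 to 3.50). Ratios of the helicase and loading genes lay below 1 except that of Cdc45, and the interval excluded 1 for 2 of the 9. Mcm2 held 53.6 and 87.4 CPM (ratio 0.613, 0.450 to 0.850) and Mcm3 116 and 158 CPM (0.735, 0.586 to 0.929). Mcm4, Mcm5, Mcm6, Mcm7, Gins2, Cdc6 and Cdc45 had intervals that included 1, as had Pcna at 120 and 109 CPM. Over the 33 members the interval lay above 1 for 8, below 1 for 2 and around 1 for 23. In the thinned counts Mcm7, Mcm2, Hells and Ccne1 were past 2-fold lower, and another draw put Mcm2 and Mcm7 on the other side, so those calls are not read.

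**Figure D5:**
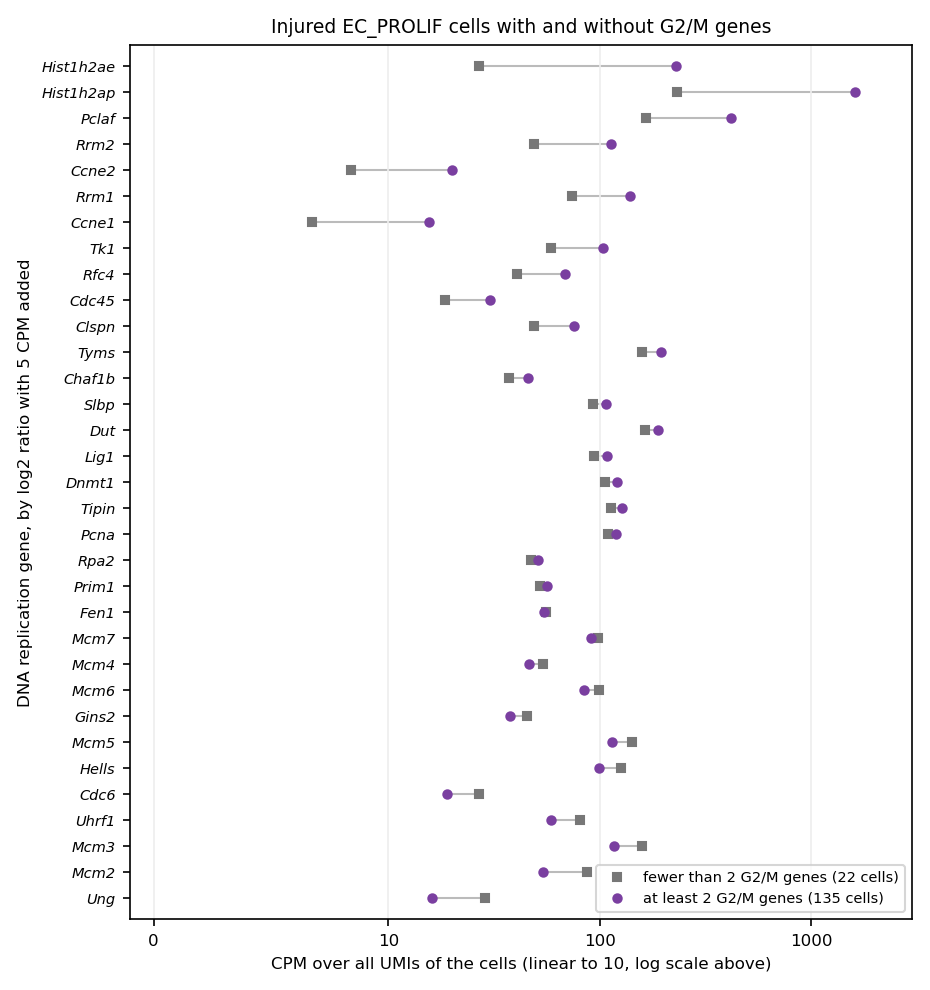
Level of each member over all UMIs of injured EC_PROLIF cells with at least 2 G2/M genes after thinning (purple, 135 cells) and with fewer (grey, 22 cells), in CPM (x axis, linear to 10 and logarithmic above), with members ordered by the log2 ratio after 5 CPM were added. Both H2A genes, Pclaf and Rrm2 stand at the top, with Hist1h2ap at 1620 against 232 CPM, and the points of most members below them lie close together.

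The other genes of the pathway were read from 8 further lists, again against the 4.79% and 6.82% of all measured genes. Counts of a list take in genes below a mean of 10 CPM, which those shares leave out. At that level 2 of 8 origin genes, 0 of 15 polymerases and fork enzymes and 2 of 13 nucleotide genes were higher. The same held for 5 of 12 chromatin genes, 1 of 3 histones and 0 of 6 checkpoint and repair genes. For E2F and G1/S genes it was 2 of 12 and for G2/M genes 18 of 18. Highest and lowest here are by the ratio after 5 CPM had been added, among genes with a mean of 10 CPM or more, and genes named for being past 2-fold below that level were chosen after their values were seen. In pooled endothelium 3 of 18 other genes of origin licensing and firing were past 2-fold higher and 0 lower. Dbf4, the activating subunit of the origin kinase, held 7.49 and 27.4 CPM and Gmnn, the licensing inhibitor, 12.8 and 31.4 CPM, while Gins4 and Orc2 had the lowest ratios, at 1.23 and 1.25. The third past 2-fold was Cdt1, which loads the ring with Cdc6 (2.42 and 12.5 CPM). Of 20 polymerases and fork enzymes 2 were higher and 0 lower, the primase subunit Prim2 (1.76 and 10.9 CPM) and the polymerase gene Pole (6 and 180 UMIs). Rfc5 (2.58-fold) and Top1 (197 and 369 CPM, 1.87-fold) had the highest ratios of the measured ones, and Pola2 (1.70-fold lower) and Rfc1 (1.21-fold lower) the lowest. Top1 kept its ratio outside EC_PROLIF, at 1.90.

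Nucleotide synthesis had 3 of 17 genes higher and 1 lower. Shmt2, a mitochondrial enzyme of one-carbon metabolism, held 4.62 and 20.3 CPM in pooled cells and 4.67 and 17.9 CPM outside EC_PROLIF. Mthfd2, of the same metabolism, was also past 2-fold (1.76 and 9.26 CPM). Samhd1, which degrades deoxynucleotides, was 2.34-fold lower (158 and 67.2 CPM), and Rrm2b, the reductase subunit of resting cells, 2.22-fold lower (28.6 and 12.9 CPM). Both were also lower outside EC_PROLIF, by 2.24-fold and 2.03-fold. Chromatin assembly had 6 of 15 genes higher and 0 lower. Once 5 CPM had been added H2afx and Hmgb2 led, at log2 ratios of 1.41 and 1.40 (3.01-fold and 2.70-fold without the added CPM). At the other end were Cbx5 (1.04-fold lower) and Hmgb1 (1.07-fold higher).

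Of 18 other replication histones 3 were higher and 0 lower. Whether reads of these genes are shared with other histone genes was not tested. Hist1h1b held 1.10 and 34.0 CPM (30.9-fold, 13.2 to 95.3), and Hist1h1e 21.6 and 26.6 CPM. The others past 2-fold were Hist1h2ab (0 and 127 UMIs) and Hist1h4i (1.10 and 9.81 CPM). Hist1h4d was 1.90-fold lower in pooled cells (58.3 and 30.7 CPM) and 3.10-fold lower outside EC_PROLIF. Over all UMIs of injured EC_PROLIF these 18 summed to 531 CPM in cells with G2/M genes and 80.7 CPM in those without. Of 18 checkpoint and repair genes 2 were higher and 0 lower in pooled endothelium. Msh6 had the highest ratio of the measured ones (1.20-fold), and Timeless, the partner of Tipin, was 1.73-fold lower (37.6 and 21.8 CPM) with Rad17 next (1.03-fold lower).

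Of 18 genes of the E2F family and its G1/S regulators 3 were higher and 0 lower. Ccna2, the S phase cyclin, held 1.54 and 28.8 CPM (18.7-fold), and Tfdp1, the partner of E2F proteins, 12.5 and 40.6 CPM. The third past 2-fold was E2f1 (2.42 and 11.5 CPM). The retinoblastoma family genes Rbl2 (1.89-fold lower) and Rb1 (1.47-fold lower) had the lowest ratios of the measured ones. By comparison 26 of 26 G2/M genes were past 2-fold higher and 0 lower in pooled endothelium. Among the 18 measured ones Ube2c (25.9-fold) and Cdk1 (32.9-fold) ranked highest once 5 CPM had been added. Kif20b (6.78-fold) and Kif23 (2.90-fold) ranked lowest of these. Outside EC_PROLIF 7 of the 26 were higher and 0 lower, where 3.93% of 8211 measured genes were higher and 6.31% lower. Only 2 of the 26 had a mean of 10 CPM or more there, of which 1 was higher. Of the 14 members at that level 1 was higher too, so on so few genes the lists are not compared. In the E2F-site split of the members, 9 of 11 with the letters and 10 of 17 without were past 2-fold higher in pooled endothelium, with median log2 ratios of 1.14 and 1.04.

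Some member values carry a counting limit. Exons of Mcm7, Gins2, Cdc45, Lig1, Fen1, Rfc4, Tk1, Ccne2, Slbp and both H2A genes overlap a gene on the other strand, and the sources used here do not give whether counting used strand. The longest overlap was that of Gins2 with Gse1, at 2758 bases, and Gse1 was level at 40.3 and 41.2 CPM. Eif4a2, which overlaps Rfc4, was at 360 and 175 CPM, opposite in direction to Rfc4. Tmem258, which overlaps Fen1, held 73.1 and 180 CPM, and Cops6, which overlaps Mcm7, 77.7 and 113 CPM, both in the direction of the member and well above its level. The part of their reads in the values of Fen1 and Mcm7 was not tested. Pseudogene copies of Pcna and Tyms in the features held at most 1.45 CPM. Under GRCm38 the gene of Pcna lies at chr2:132249162-132253314 and that of Tyms at chr5:30058202-30073617, both on the minus strand, and Mcm5 at chr8:75109569-75128439 on the plus strand.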

How the data were processed

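Single-cell RNA counts came from 1 intact and 1 injured library of sorted nerve endothelial cells, each from pooled nerves. The authors deposited raw UMI counts for every gene in every barcode, without scaling. Their matrices name Cell Ranger 3.0.2 as the software, per the file headers. Per the submitters' processing notes, Cell Ranger 6.1.2 and Seurat 4.0.1 were also used, with mm10 (GRCm38). The deposited cell table classes the cells, and the sources used here do not give how they were filtered or classed. No doublet caller was run.

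UMIs were summed over cells of a class and library and divided by their total (CPM). Intervals were exact Poisson, conditional binomial or Clopper-Pearson at 95%, computed in Python 3.11.15 with scipy 1.17.1. Cells were thinned by random draws without replacement (seed 1). The summing and calling steps were tested on simulated data. Gene positions came from GENCODE M21, which holds 50604 of the 53380 features with the same ID and version. All 33 members are reported, and of each other list the 2 measured genes with the highest and the 2 with the lowest ratio are named, except for a few genes that are not reported here. Members and lists were chosen with earlier results of these data known. Alternatives changed the treatment of shared barcodes, the cells and genes kept, the thinning depth, the added CPM and the fold.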

Additional observations from a re-analysis of the deposited data

Results flagged for a closer look

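Barcodes to which the authors' table gives no class were outside the comparisons, and they too held replication genes. After thinning to 3000 UMIs, 40 of 348 injured barcodes without a class (11.5%, exact binomial interval 8.34 to 15.3%) held at least 5 different members, against 12 of 470 intact ones (2.55%, 1.33 to 4.42%), the level in the control library. Summed members stood at 1445 CPM in the injured and 458 CPM in the intact barcodes, and G2/M genes at 1097 and 159 CPM. Hells, the remodeller, held 3.88 and 32.9 CPM and Tyms 12.3 and 52.2 CPM, intact and injured, whereas Pcna held 53.7 and 48.7 CPM. The 40 injured barcodes had a median of 27238 UMIs. Their fibroblast markers (5 of 6 genes, Dpt at 0) summed to 6071 CPM and their pan-endothelial markers (10 of 10) to 3001 CPM, so they hold RNA of more than 1 cell type as a group. Whether doublets are among them was not tested.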

How the results depend on the processing

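The summed log2 ratio of 1.64 had the same sign under all 11 alternatives and the median log2 ratio of the members under all 14, and the number of members past 2-fold lower was 0 under all 16. The summed ratio was 0.29 without EC_PROLIF, 0.46 without cells holding G2/M genes, 0.078 with classes weighted equally, 1.48 without every shared barcode, 1.80 in cells under 5% mitochondrial UMIs, 1.21 after thinning, 1.15 as a mean over cells and 1.31 without both H2A genes. The median was 0.25, 0.42 and 0.31 in the first 3 of these. Equal weights were given to classes with at least 10 cells in both libraries, which left out EC_IMMAT and EC_TIP. EC_PROLIF entered them like any other class, at 4084.5 CPM over its 11 intact cells and 4454 CPM over the injured ones. The value with equal weights thus rests in part on those 11 cells, which were a mixed set. The number of members past 2-fold higher was 2 without EC_PROLIF, 4 without cells holding G2/M genes, 2 with classes weighted equally, 11 after thinning, 12 as a mean over cells, 12 with 10 CPM added and 8 at a 3-fold limit.

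Shares of cells with at least 2 members were 17.5% intact, 28.8% injured and 92.5% in injured EC_PROLIF at 2000 UMIs. At 5000 UMIs they were 53.9% intact and 60.5% injured. With 1 member required they were 65.4% and 71.0%, with 3 members 9.75%, 22.8% and 89.2%, and with 5 members, a limit added after the data were seen, 1.24%, 11.7% and 75.2%. The injured share was 32.6% without EC_PROLIF, and 29.9% there with another random draw. With 5 members and another draw the shares were 0.830%, 12.8% and 77.1%. In EC_PROLIF the log2 ratio of cells with over without G2/M genes turned from -1.30 to 0.56 for Mcm2 and from -1.35 to 0.48 for Mcm7 with another draw. It was -0.71 and -0.10 over all UMIs of the cells. For Hells it was -1.18, -0.34 over all UMIs and -1.74 with another draw. For Hist1h2ap it was 2.17, 2.80 over all UMIs and 4.80 with another draw. The other settings moved the shares and sums of all endothelium by less than the counting interval or 1.5 times.

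With 1 library per group there was no replicate to leave out and no test, and injury cannot be told apart from animals, sorting or sequencing. Depth limits the low members: Tk1, Uhrf1, Ccne1 and Ung had 2 to 8 intact endothelial UMIs. Thinning dropped 236 of 718 intact cells, mostly the shallow ones, against 51 injured ones.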
